A study of Mus musculus with 20 samples.

Results

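The genes described here are 38 genes of the apoptosis machinery in mouse granulosa cells (GCs), namely the BCL2 family, a set of caspases with their activators and inhibitors, the death receptors with their ligands and adaptors, and p53 with its inhibitor Mdm2. The members were given by symbol, with no threshold on a measured value but with earlier results of these data known, and all 38 were found among the 55487 gene identifiers of the counts. GCs are the somatic cells that line the ovarian follicle, feed and signal to the oocyte, and produce estradiol. They were taken from 20 female mice, with 5 mice in each of 4 groups. The groups were ctrl mice in estrus, ctrl mice in diestrus, FL1 mice in estrus and FL1 mice in diestrus.

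The Dummerstorf mice are outbred lines with common founders. FL1 mice come from many generations of selection on the size and weight of litters, while ctrl mice come from unselected breeding, so that the lines differ in their whole genetic background and not in a single gene. No mouse carried a transgene or received a treatment. The mice were 77 ± 5 days old according to the methods, and the stage was read from the cells of vaginal smears. From each mouse the mural GCs of 7 to 10 of the largest follicles were pooled, and these follicles can differ in their state of growth or atresia.

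Apoptosis is the usual end of a follicle. Most follicles that start to grow become atretic, and the death of their GCs is the first visible sign. In the mitochondrial route, BH3-only proteins sense stress or the loss of gonadotropins and growth factors. They engage the anti-death BCL2 proteins and release Bax and Bak1, which open the outer mitochondrial membrane. Cytochrome c (Cycs) then leaves the mitochondrion and joins Apaf1 in the apoptosome, which activates Casp9. In the receptor route, ligands such as Fasl or Tnfsf10 (TRAIL) bind receptors of the TNF receptor family, and Fadd brings Casp8 to them. Inhibitors such as Xiap and Cflar hold both routes in check, and Diablo, also released from mitochondria, relieves the block by Xiap.

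Each transcript was read near its 3′ end only, so a longer gene does not give more reads. Levels were compared between genes on this basis, but reads that matched several places were left out of the counts. Levels of genes with similar sequences elsewhere near that end, such as Cycs, Apaf1 and Tnfrsf10b, may therefore be too low, by an unknown amount. Between 5446576 and 8257041 reads per library were counted on genes (median 6457585.5). Over all genes the mean correlation of a library with its own group on the log2 scale lay between 0.828 and 0.869. Replicate 1 of FL1 diestrus was slightly closer to FL1 mice in estrus (0.839) and ctrl mice in estrus (0.830) than to its own group (0.828). Replicate 1 of ctrl estrus and replicate 3 of FL1 diestrus were closer to ctrl diestrus by smaller margins (0.8481 against 0.8476, and 0.8569 against 0.8565). Replicate 2 of ctrl diestrus was closer to ctrl estrus (0.8590) and FL1 diestrus (0.8587) than to its own group (0.8585). Estimates without replicate 1 of FL1 diestrus alone are given beside several results, from edgeR fits that left it out. Expression is given as CPM, the reads of a gene scaled to the size of its library with the TMM correction, with the standard deviation (SD) over the mice. At these depths 3 reads, the floor used here, correspond to 0.347 to 0.536 CPM. Of the granulosa markers, 10 of 10 were detected, with a summed level of 5820 to 15912 CPM. The markers of other cells were present at lower sums, with 131 to 2005 CPM for 8 theca and stroma markers, 7.69 to 134 CPM for 9 leukocyte markers, 16.1 to 102.7 CPM for 6 endothelial markers, 47.5 to 565 CPM for 7 oocyte markers, 47.7 to 1614 CPM for 5 erythrocyte markers and 431 to 5580 CPM for 4 luteal markers. In these samples a change in the share of a cell type and a change of RNA per cell cannot be told apart.

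Of the 38 members, 37 had reads in at least 1 library and 28 had more than 3 reads in every library. On average over the 20 libraries, 12 members reached 50 CPM or more, 16 lay between 10 and 50 CPM, 5 between 1 and 10 CPM and 4 below 1 CPM. Fasl, the ligand of Fas, had 0 reads in all 20 libraries. A count of 0 allows up to 3 reads, or at most 0.536 CPM, in any of them, for counting error only.

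**Figure D1:**
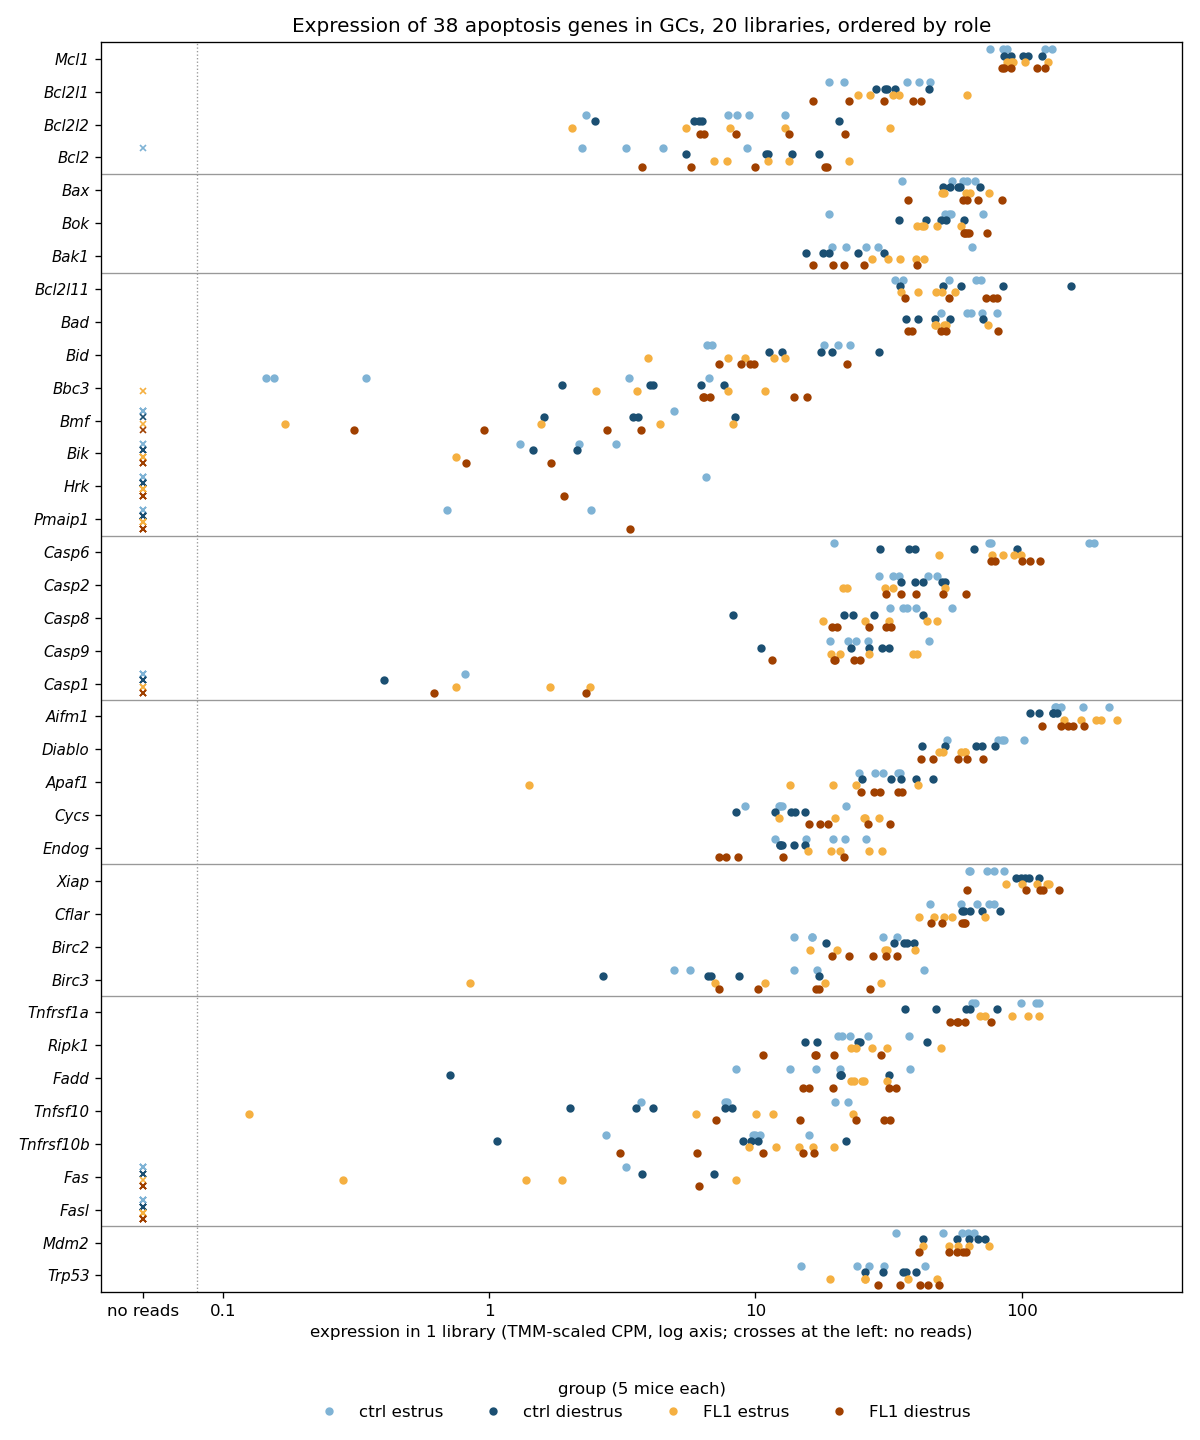
Expression of the 38 members in each of the 20 libraries as TMM-scaled CPM on a log axis, by role from top to bottom and by mean level within each role; each point is 1 mouse, the colours are the 4 groups, and crosses at the left mark libraries without a read. Aifm1, Mcl1 and Xiap have the highest means and reads in every library, whereas Fas, Bik, Bmf, Casp1, Hrk and Pmaip1 change between no reads and a few CPM from 1 library to the next.

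Among the anti-death BCL2 proteins, which bind and hold the pore-formers and the BH3-only proteins, Mcl1 was the strongest expressed with 100 CPM on average, followed by Bcl2l1 (the gene of BCL-XL) with 33.2 CPM. Bcl2l2 and Bcl2 itself reached 9.95 and 9.81 CPM. The 3 pore-forming proteins were all clearly expressed, with 59.3 CPM for Bax, 52.3 CPM for Bok and 28.4 CPM for Bak1. The BH3-only genes fell into separate levels. Bcl2l11 (BIM), Bad and Bid were found in every library with means of 59.8, 55.5 and 13.4 CPM, and Bbc3 (PUMA) reached 5.42 CPM. Bmf, Bik, Hrk and Pmaip1 (NOXA) stayed at 2.21, 0.669, 0.423 and 0.325 CPM and had 0 reads in 7, 12, 18 and 17 of the 20 libraries.

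Casp6, an effector caspase, was the strongest expressed caspase of the set with 84.6 CPM. The initiators Casp2, Casp8 and Casp9 followed with 39.3, 31.0 and 25.2 CPM, and the inflammatory Casp1 had 0.449 CPM. Aifm1, a flavoprotein of the mitochondrial intermembrane space that can move to the nucleus and also serves the respiratory chain, led all members with 154 CPM. Diablo reached 63.9 CPM, Apaf1 29.1 CPM, Cycs 17.8 CPM and Endog, a mitochondrial nuclease, 16.6 CPM. Xiap, which binds and blocks caspases directly, led the inhibitors with 99.05 CPM. Cflar (c-FLIP), which keeps Casp8 inactive at the receptor, reached 60.5 CPM, and the ubiquitin ligases Birc2 and Birc3 reached 27.4 and 13.6 CPM.

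On the receptor side Tnfrsf1a, the main receptor of TNF, was the strongest expressed with 75.7 CPM. The adaptors Ripk1 and Fadd had 25.1 and 21.9 CPM. The ligand Tnfsf10 and its receptor Tnfrsf10b stood at 12.3 and 11.2 CPM. Fas had 1.61 CPM and was without a read in 12 of 20 libraries. Trp53, the gene of p53, had 33.1 CPM and its inhibitor Mdm2 57.2 CPM.

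The members differed in how far the mice of a group lay apart. For the 28 members with more than 3 reads in every library, the SD within groups was between 0.23 and 1.24 on the log2 scale (median 0.45), and for the 9410 genes that met the same condition the median was 0.50. Aifm1, Mcl1, Cflar and Xiap varied least, with SDs of 0.23, 0.25, 0.26 and 0.27 on the log2 scale. Birc3, Fadd, Bcl2l2, Tnfrsf10b and Apaf1 varied most, with SDs of 1.24, 1.13, 1.05, 1.02 and 0.91. Fadd ranged from 0.715 to 38.1 CPM and Apaf1 from 1.41 to 46.5 CPM, because in each case a single library was far below the others of its group.

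The starts of the member genes held more CG than promoters in general, and no comparison with expressed genes alone was made. Of the members, 35 were matched by symbol to RefSeq promoters (build GRCm38.p6, 250 bases before to 50 bases after a start), with 47 promoters in all. The median number of CG dinucleotides, which read the same on both strands, was 21 in these and 7 in the 32851 promoters of the table. Casp1, Casp8, Tnfsf10, Fasl and Birc3 had 3, 5, 6, 7 and 7 CG, at or below that general median, whereas Bcl2, Diablo and Apaf1 had 44, 42 and 46. Bcl2l1, Xiap and Bmf, with 3 promoters each, ranged from 1 to 22, from 2 to 20 and from 6 to 13 CG. A promoter of each kind is shown for a pair of genes described further on. Tnfsf10 lies at chr3:27316827-27317126 on the plus strand, where 47.9% of all promoters had as many CG or fewer. Cycs lies at chr6:50566520-50566819 on the minus strand with 32 CG, where 91.4% had as many or fewer. Capitals mark each CG.
Tnfsf10: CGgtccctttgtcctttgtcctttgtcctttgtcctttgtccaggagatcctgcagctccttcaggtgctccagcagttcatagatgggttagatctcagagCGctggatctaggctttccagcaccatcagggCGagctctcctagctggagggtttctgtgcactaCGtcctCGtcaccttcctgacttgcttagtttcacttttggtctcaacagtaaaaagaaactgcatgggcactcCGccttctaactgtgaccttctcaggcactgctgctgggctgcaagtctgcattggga
Cycs: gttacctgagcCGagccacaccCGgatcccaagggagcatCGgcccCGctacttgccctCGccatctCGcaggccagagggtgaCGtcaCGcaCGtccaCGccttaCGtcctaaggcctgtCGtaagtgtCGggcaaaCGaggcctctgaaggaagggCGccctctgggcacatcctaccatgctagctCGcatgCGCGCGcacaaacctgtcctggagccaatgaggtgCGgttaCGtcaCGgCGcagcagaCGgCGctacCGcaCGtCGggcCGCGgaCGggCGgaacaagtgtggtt

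The study asked how GCs of FL1 mice differ from those of ctrl mice in each stage. Genes were compared by edgeR's quasi-likelihood test over all genes that passed a filter on low counts, and called at an adjusted p of 0.05 or less (Benjamini-Hochberg over all genes tested). In estrus 31 of the 38 members passed the filter, and none was called, where 0.769% of the 13007 genes tested were called. Unadjusted p-values were below 0.05 for 2 members, Xiap and Diablo, which is 6.45% of those tested against 10.7% of all genes. Estimates were higher in FL1 mice for 17 members and lower for 14, with a median log2 fold change of 0.09 against 0.01 for all genes. The median was 0.04 over the 22 pro-death members and 0.14 over the 9 anti-death members. The 95% confidence interval lay within a 2-fold change in either direction for 19 of the 31 members, so for these a larger difference between the lines in estrus is outside the interval.

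Xiap (chrX:42059679-42109656, plus strand, GRCm38) was the member whose samples separated in estrus. The 5 ctrl mice had 63.6, 73.8, 63.8, 85.7 and 78.7 CPM, and the 5 FL1 mice had 125, 87.1, 127, 113.9 and 100.4 CPM. Every FL1 value was above every ctrl value, as for 3.57% of all genes tested, in either direction. In edgeR the log2 fold change was 0.59 (SE 0.19, 95% interval 0.19 to 1.00), with an adjusted p of 0.198 in edgeR and 0.0453 in DESeq2, the tool of the study, and a range of 0.0453 to 0.378 over 16 alternatives. DESeq2 called 2.67% of the genes to which it gave an adjusted p in this comparison. In diestrus the values of the lines overlapped, with 104.1 ± 7.8 CPM (SD, n = 5) in ctrl and 108.3 ± 29 CPM (SD, n = 5) in FL1 mice and a log2 fold change of 0.07 (95% interval -0.38 to 0.52). The difference between the line effects of the stages was -0.53 on the log2 scale (95% interval -1.10 to 0.03). Luteal markers also stood apart between the lines in estrus, with a summed level of 819 to 1321 CPM in ctrl and 2302 to 5580 CPM in FL1 mice over 4 of 4 detected markers, of which Akr1c18 and Star were called higher in FL1 mice. The sum of 9 leukocyte markers was 21.0 to 70.1 CPM in ctrl and 55.4 to 134 CPM in FL1 mice. The part of such cells in the value of Xiap was not tested.

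Diablo (chr5:123509765-123524176, minus strand), the antagonist of Xiap, lay on the other side. It stood at 84.2, 52.6, 81.4, 85.8 and 102.2 CPM in ctrl mice in estrus and at 61.1, 48.8, 61.1, 59.1 and 50.7 CPM in FL1 mice. In 4 of the 5 ctrl mice it was above all FL1 mice, and the fifth lay within the range of FL1 mice. The log2 fold change was -0.54 (SE 0.22, 95% interval -0.99 to -0.09, edgeR adjusted p = 0.336). In diestrus it was -0.15 (95% interval -0.65 to 0.35). Genes on the other strand overlap Diablo, with 518 reads in all libraries for B3gnt4 against 8549 for Diablo.

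Bcl2 (chr1:106538178-106714274, minus strand) had the largest estimate in estrus with little precision. The ctrl mice in estrus had 0, 9.31, 4.51, 2.23 and 3.27 CPM and the FL1 mice 13.4, 11.2, 7.86, 22.4 and 7.0 CPM. A single ctrl mouse lay within the range of FL1 mice. Its log2 fold change was 1.67 (SE 0.83, 95% interval -0.08 to 3.42, edgeR adjusted p = 0.493), and counts were low, with at most 60 reads in a ctrl library. In diestrus the groups overlapped at 11.8 ± 4.3 CPM (SD, n = 5) in ctrl and 11.3 ± 6.9 CPM (SD, n = 5) in FL1 mice. The other anti-death BCL2 genes were nearer to equal, and for Mcl1 the 95% interval in estrus was within a 2-fold change, with 100 ± 24 CPM (SD, n = 5) in ctrl and 99.8 ± 15 CPM (SD, n = 5) in FL1 mice.

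In diestrus 32 members passed the filter and again none was called, where 0.248% of 12886 genes were called. Unadjusted p-values below 0.05 were found for 3 members, which is 9.38% of those tested against 5.56% of all genes, and all 3 estimates were higher in FL1 mice, the direction of 3.09% of all genes. These were Tnfsf10, Casp6 and Cycs, which are all pro-death genes. Over the 23 pro-death members tested 15 estimates were higher and 8 lower in FL1 mice (median log2 fold change 0.08), and over the 9 anti-death members 3 were higher and 6 lower (median -0.05). The median of all genes was 0.01. For a single member the median half-width of the interval was 0.66.

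Tnfsf10 (chr3:27317028-27342427, plus strand) had the largest estimate of all members in diestrus. The study lists it among its differentially expressed genes of this stage, with stronger expression in FL1 mice. The ctrl mice had 3.58, 2.01, 8.16, 7.68 and 4.13 CPM and the FL1 mice 7.14, 14.7, 32.0, 23.9 and 30.3 CPM. In 4 of 5 FL1 mice the ligand was above all ctrl mice, and the first FL1 mouse lay within their range. The log2 fold change was 2.08 (SE 0.53, 95% interval 0.96 to 3.21), with an adjusted p of 0.203 in edgeR and 0.0118 in DESeq2, which called 0.720% of its genes, and a range of 0.0118 to 0.461 over 16 alternatives. Without replicate 1 of FL1 diestrus it was 2.30 (edgeR adjusted p = 0.0845), and those of Casp6, Cycs and Bok, described next, were 0.92, 0.64 and 0.43. In estrus the lines overlapped over nearly the whole range, with 3.72 to 22.2 CPM in ctrl and 0.125 to 23.2 CPM in FL1 mice and a log2 fold change of -0.27 (95% interval -1.88 to 1.34). The line effects of the stages differed by 2.34 on the log2 scale (95% interval 0.32 to 4.37), with an unadjusted p of 0.0249 and an adjusted p of 1.00 in edgeR's test of the interaction.

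Beside Tnfsf10, which many immune cells express too, markers of other cells also differed in diestrus. The sum of the 9 leukocyte markers was 7.69 to 20.7 CPM in ctrl and 12.7 to 96.0 CPM in FL1 mice, and the sum of the 6 endothelial markers was 16.1 to 37.6 and 30.4 to 102.7 CPM. The sums of the 4 luteal markers did not overlap, with 431 to 824 CPM in ctrl and 997 to 2482 CPM in FL1 mice. None of these markers was at 0 reads throughout a group. Star was called higher in FL1 mice, and no leukocyte or endothelial marker was called in this comparison. Their part in the values of Tnfsf10, Casp6, Cycs and Bok was not tested. The receptor Tnfrsf10b gave a log2 fold change near 0 in diestrus, with 10.4 ± 7.4 CPM (SD, n = 5) in ctrl and 10.3 ± 5.8 CPM (SD, n = 5) in FL1 mice.

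Casp6 (chr3:129901425-129914103, plus strand) had 66.0, 39.6, 37.7, 29.3 and 96.1 CPM in ctrl mice in diestrus and 76.9, 100.6, 107.9, 116.8 and 79.1 CPM in FL1 mice. The groups overlapped by 1 ctrl mouse. Casp6 had a log2 fold change of 0.85 (SE 0.30, 95% interval 0.22 to 1.47, edgeR adjusted p = 0.601). In estrus the ctrl mice were spread from 19.7 to 187 CPM around the FL1 mice, which had 48.7 to 99.5 CPM. The difference between the line effects was 1.26 on the log2 scale (95% interval 0.14 to 2.37, unadjusted p = 0.0283 and adjusted p = 1.00 in edgeR).

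Cycs (chr6:50562563-50566538, minus strand) was higher on average in FL1 mice in both stages. In estrus the ctrl mice had 21.9, 12.3, 12.4, 12.6 and 9.13 CPM and the FL1 mice 25.8, 19.9, 25.6, 12.3 and 29.01 CPM. In diestrus the ctrl mice had 14.1, 8.46, 15.4, 13.6 and 11.9 CPM and the FL1 mice 32.2, 15.95, 17.6, 26.4 and 18.8 CPM. The samples overlapped in estrus and did not overlap in diestrus, as for 1.59% of all genes in either direction. The log2 fold changes were 0.71 (95% interval -0.09 to 1.51) and 0.81 (95% interval 0.06 to 1.57), with adjusted p-values of 0.536 and 0.855 in edgeR.

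The genome holds 9 copies of Cycs with at least 90% identity among the annotated genes, with 195 reads in all libraries against 2339 for Cycs. The copies most like Cycs, Gm10108 and Gm13772, had 0 and 1 reads, and most of the reads lay on less similar copies. With the reads of all 9 copies added, the means were 14.2 ± 4.7 and 25.0 ± 6.7 CPM (SD, n = 5) in ctrl and FL1 mice in estrus, and 14.96 ± 3.3 and 22.6 ± 6.6 CPM (SD, n = 5) in diestrus. The lines then also overlapped in diestrus, with 10.2 to 19.1 CPM in ctrl and 15.95 to 32.2 CPM in FL1 mice. The mean log2 difference in diestrus went from 0.78 for Cycs alone to 0.58 with the copies, and the two-sided exact permutation p from 0.00794, the smallest that 5 against 5 mice can give, to 0.0476. Reads that match the copies equally well were left out of the counts by the authors, and 23.2% to 32.8% of the reads of a library matched several places. The values with the copies therefore do not test whether reads of Cycs were lost or misplaced.

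Bok (chr1:93685660-93695764, plus strand), a pore-former that is strongly expressed in reproductive organs, was the other member whose samples did not overlap in diestrus. The ctrl mice had 52.0, 34.6, 60.6, 43.7 and 49.9 CPM and the FL1 mice 63.7, 74.3, 60.9, 62.3 and 61.1 CPM. The highest ctrl mouse came within 1 CPM of the lowest FL1 mouse. The log2 fold change was 0.43 (SE 0.21, 95% interval -0.02 to 0.87, edgeR adjusted p = 0.907).

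**Figure D2:**
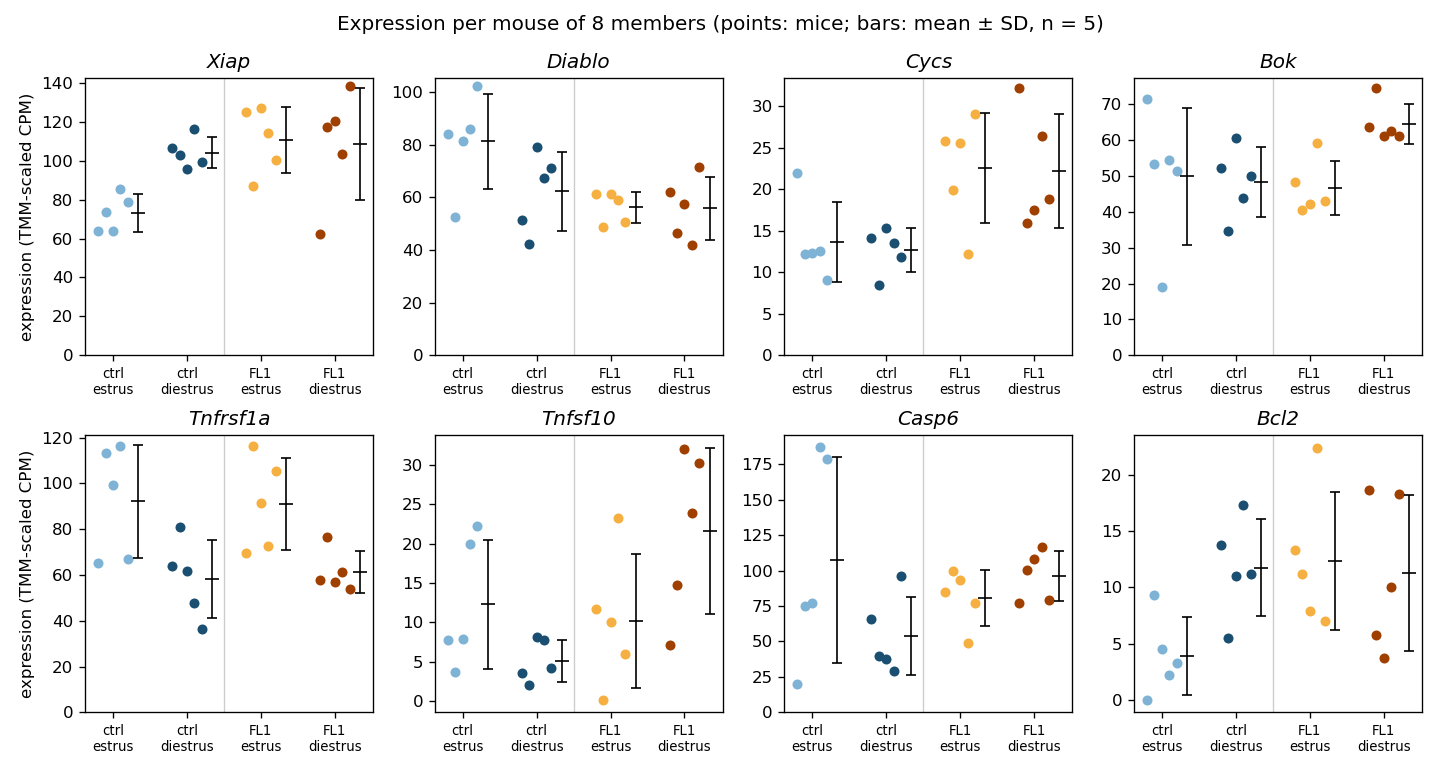
TMM-scaled CPM of Xiap, Diablo, Cycs, Bok, Tnfrsf1a, Tnfsf10, Casp6 and Bcl2 on linear axes, with 1 point per mouse and the mean ± SD of the 5 mice beside each group. Xiap does not overlap between the lines in estrus, Cycs and Bok do not overlap in diestrus, and Tnfrsf1a is lower on average in diestrus than in estrus in both lines.

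Over both stages, with the stage as a term and 10 mice per line, 33 members were tested and none was called, where 1.21% of 14938 genes were called. Unadjusted p-values were below 0.05 for 4 members, which is 12.1% against 11.0% of all genes. Cycs had the lowest p of the members, with a log2 fold change of 0.76 (SE 0.25, 95% interval 0.25 to 1.27), an adjusted p of 0.153 in edgeR and one of 0.0215 in DESeq2, which called 2.66% of its genes, with a range of 0.0215 to 0.264 over 25 alternatives. Cycs stood at 13.2 ± 3.7 CPM in ctrl and 22.3 ± 6.4 CPM in FL1 mice (SD, n = 10), and with its copies at 14.6 ± 3.8 and 23.8 ± 6.4 CPM. In the same comparison the luteal markers Akr1c18, Ptgfr and Star and the leukocyte marker Lyz2 were called higher in FL1 mice, with median log2 fold changes of 2.06 over 4 luteal and 1.68 over 9 leukocyte markers. Their summed levels were 431 to 1321 CPM in ctrl and 997 to 5580 CPM in FL1 mice for luteal and 7.69 to 70.1 and 12.7 to 134 CPM for leukocyte markers, and their part in the value of Cycs was not tested. Without replicate 1 of FL1 diestrus the log2 fold change of Cycs was 0.68 and that of Xiap 0.41 (edgeR adjusted p = 0.244 and 0.123). The other 3 were Xiap with 0.33 (95% interval 0.03 to 0.62), Diablo with -0.35 (95% interval -0.67 to -0.02) and Bid with -0.68 (95% interval -1.35 to -0.01). Bid, the BH3-only protein that links Casp8 to the mitochondrion, overlaps Bcl2l13 on the other strand, which had 13042 reads against 1786 for Bid.

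In this pooled fit the 95% interval of 21 of 33 members lay within a 2-fold change. These included the pore-formers Bax, with a log2 fold change of 0.11, Bak1 with 0.17 (95% interval -0.31 to 0.64) and Bok with 0.16 (95% interval -0.22 to 0.54). They also included Tnfrsf1a with 0.03 (95% interval -0.30 to 0.36) and Aifm1 with 0.23 (95% interval -0.02 to 0.49). For Bcl2, Bbc3, Tnfsf10 and Bmf the intervals reached beyond 2-fold, and differences of that size were not resolved at these counts.

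**Figure D3:**
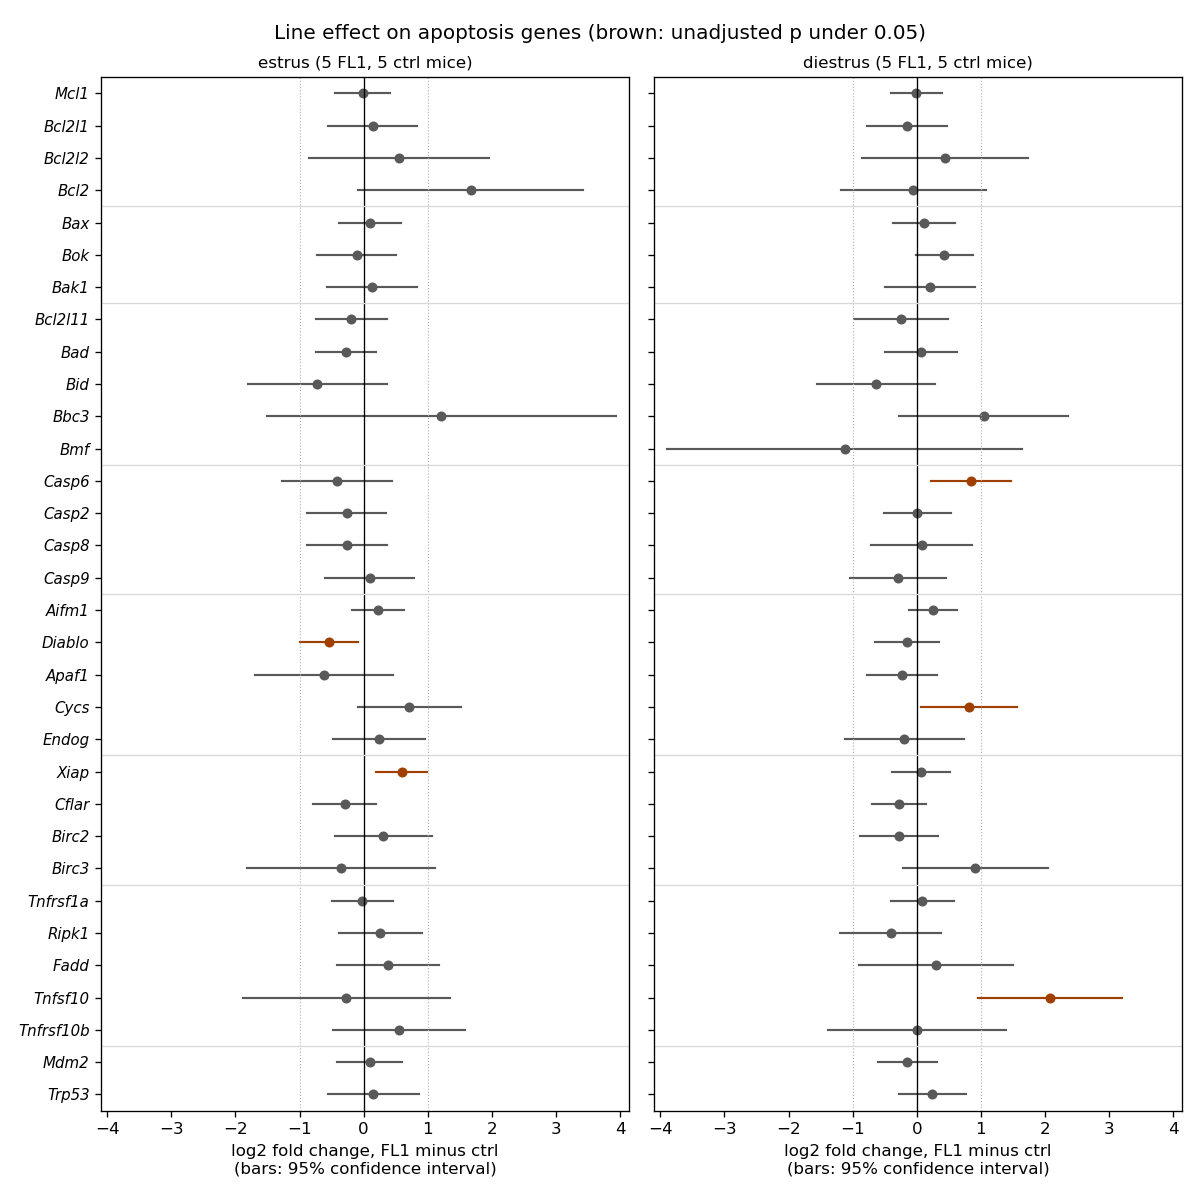
Log2 fold change between FL1 and ctrl mice for each member tested, in estrus on the left and in diestrus on the right, with bars for the 95% confidence interval, dotted lines at a 2-fold change and brown for an unadjusted p under 0.05. Xiap and Diablo lie on opposite sides of 0 in estrus, Tnfsf10, Casp6 and Cycs lie above 0 in diestrus, and most other intervals include 0.

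The design also allows the stages to be compared within each line. In ctrl mice 32 members were tested and none was called, where 1.36% of 12850 genes were called. Unadjusted p-values were below 0.05 for 3 members, which is 9.38% against 11.8% of all genes. In FL1 mice 32 members were tested and none was called, where 0.221% of 13114 genes were called, and 4 members, or 12.5%, had an unadjusted p below 0.05 against 9.48% of all genes. The comparisons between lines and between stages share their samples, so that a value in one group enters both.

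In ctrl mice Xiap was the member with the lowest p between the stages. The ctrl mice in diestrus had 106.4, 102.9, 95.5, 116.1 and 99.5 CPM, and all were above the 5 ctrl mice in estrus given before, as for 3.67% of all genes in either direction. The log2 fold change of diestrus against estrus was 0.51 (SE 0.18, 95% interval 0.13 to 0.88, edgeR adjusted p = 0.209). In FL1 mice it was -0.03 (95% interval -0.50 to 0.44). The lowest group mean was that of ctrl mice in estrus (73.1 CPM), while the lowest single value, 62.1 CPM, belonged to replicate 1 of FL1 diestrus. The sum of the leukocyte markers was 21.0 to 70.1 CPM in ctrl mice in estrus and 7.69 to 20.7 CPM in diestrus, and its part in this difference was not tested.

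Tnfrsf1a (chr6:125349362-125362484, plus strand) was lower on average in diestrus in both lines. In ctrl mice it stood at 65.1, 113.2, 99.1, 116.5 and 67.0 CPM in estrus and at 63.8, 81.1, 61.7, 47.7 and 36.5 CPM in diestrus. In FL1 mice it stood at 69.8, 116.2, 91.6, 72.5 and 105.3 CPM in estrus and at 57.6, 76.6, 57.0, 61.5 and 53.7 CPM in diestrus. The stages overlapped in each line. The log2 fold changes were -0.67 in ctrl mice (95% interval -1.19 to -0.14, edgeR adjusted p = 0.258) and -0.57 in FL1 mice (95% interval -1.02 to -0.12, edgeR adjusted p = 0.357), and the test of the interaction gave a difference of 0.10 (95% interval -0.56 to 0.76).

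The stages were therefore also compared over both lines, with the line as a term. This comparison was added after the values within the lines had been seen, so its p-values are not independent of that choice. Tnfrsf1a was the only one of the 33 members tested that was called in edgeR, where 3.17% of 14938 genes were called. It fell by 0.61 on the log2 scale from estrus to diestrus (SE 0.16, 95% interval -0.94 to -0.28), with an adjusted p of 0.0305 in edgeR and 0.00556 in DESeq2 (0.00556 to 0.0652 over 25 alternatives). DESeq2 called 5.67% of its genes. The call was lost when any 1 of 7 of the 20 libraries was left out, with adjusted p-values of 0.0535 to 0.0652. These were replicates 2 and 4 of ctrl estrus, 4 and 5 of ctrl diestrus, 2 and 5 of FL1 estrus and 5 of FL1 diestrus. Markers of several cell types moved in the same comparison. The median log2 fold change was -1.01 over 9 leukocyte, -0.93 over 7 theca and stroma and -0.68 over 4 luteal markers, of which Scarb1 and Star were called lower and the theca marker Cyp17a1 higher in diestrus. Over the 10 granulosa markers the median was 0.26, and Fshr, Inhba, Cyp19a1 and Fst were called higher. From estrus to diestrus the sums ranged from 21.0 to 134 CPM and from 7.69 to 96.0 CPM for leukocyte, from 819 to 5580 and from 431 to 2482 CPM for luteal, from 580 to 1680 and from 131 to 2005 CPM for theca and stroma, and from 5820 to 10361 and from 8935 to 15912 CPM for granulosa markers. Their part in the value of Tnfrsf1a was not tested.

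In the same comparison 6 members, or 18.2% of those tested, had an unadjusted p below 0.05 against 14.6% of all genes. Beside Tnfrsf1a these were Endog, Aifm1, Bak1 and Casp8 with lower and Bcl2l11 with higher values in diestrus. Endog (chr2:30171493-30174069, plus strand) had a log2 fold change of -0.72 (95% interval -1.26 to -0.19), with an adjusted p of 0.141 in edgeR and 0.0341 in DESeq2 (0.0341 to 0.249 over 25 alternatives). It overlaps Spout1 on the other strand, which had 11026 reads against 2234 for Endog. Aifm1 (chrX:48474944-48513563, minus strand) had a log2 fold change of -0.33 (95% interval -0.59 to -0.08), with adjusted p-values of 0.167 and 0.0403 (0.0403 to 0.297 over 25 alternatives). Its means were 158 ± 34 CPM in estrus and 125 ± 12 CPM in diestrus in ctrl mice (SD, n = 5), and 186 ± 32 and 147 ± 19 CPM in FL1 mice (SD, n = 5). For Bak1, Casp8 and Bcl2l11 the log2 fold changes were -0.55, -0.53 and 0.53, with adjusted p-values of 0.245, 0.291 and 0.233 in edgeR. With each mouse left out in turn they ranged from -0.67 to -0.36, from -0.66 to -0.43 and from 0.33 to 0.62. Bak1 overlaps entries of Ggnbp1 on the other strand with 56 and 753 reads, against 3798 for Bak1. Casp8, with 4128 reads, overlaps Gm37760 on the same strand (602 reads), and the pseudogene Gm20257 (253 reads) is 99.2% identical to it over 130 nt.

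Bcl2l11, the BH3-only protein BIM that is a known target of FOXO factors, had 52.2 ± 17 CPM in estrus and 76.7 ± 47 CPM in diestrus in ctrl mice (SD, n = 5). In FL1 mice the means were 45.9 ± 8.1 and 64.5 ± 19 CPM (SD, n = 5). In ctrl mice in diestrus a single mouse reached 154 CPM, and the others had 35.0 to 85.1 CPM. The groups overlapped in both lines.

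Some members had an unadjusted p below 0.05 in 1 line alone. In ctrl mice Casp6 had a log2 fold change of -1.002 (95% interval -1.97 to -0.03). In FL1 mice these were Endog with -0.95 (95% interval -1.79 to -0.11, and -1.31 without replicate 1 of FL1 diestrus), Ripk1 with -0.72 (unadjusted p = 0.0486, and -0.58 without that replicate) and Bok with 0.47 (95% interval 0.03 to 0.92). Of them Bok did not overlap between the stages, with 40.4 to 59.1 CPM in estrus and 60.9 to 74.3 CPM in diestrus, as for 2.42% of all genes in either direction. Ripk1 overlaps Serpinb6a on the other strand, which had 36183 reads against 3349 for Ripk1.

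**Figure D4:**
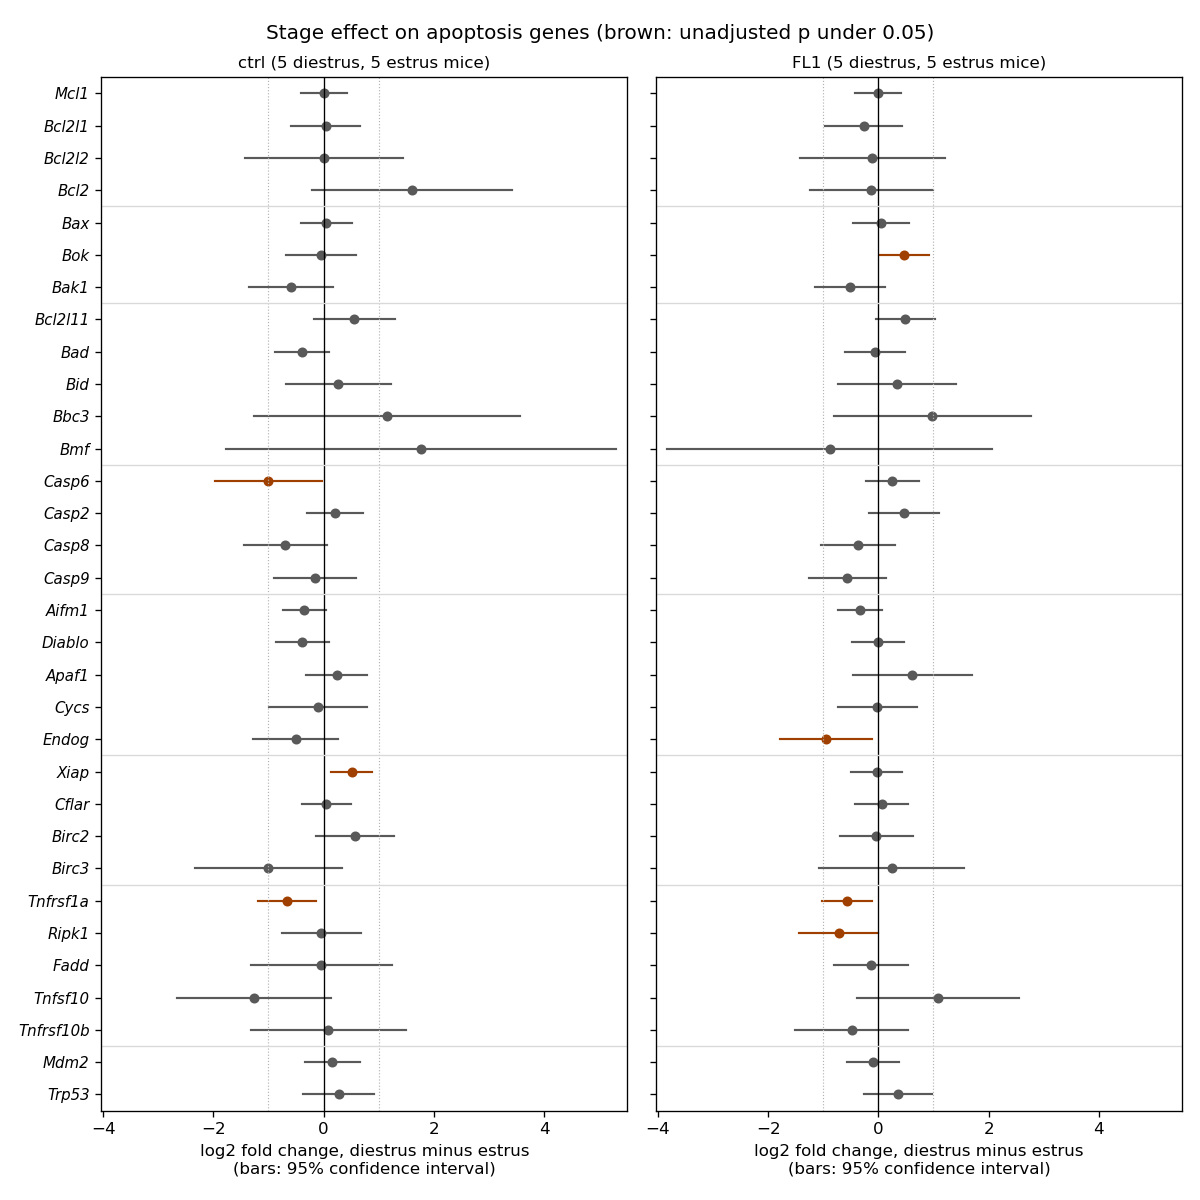
Log2 fold change between diestrus and estrus for each member tested, in ctrl mice on the left and in FL1 mice on the right, with bars for the 95% confidence interval, dotted lines at a 2-fold change and brown for an unadjusted p under 0.05. Tnfrsf1a lies below 0 in both lines, and Xiap lies above 0 in ctrl mice and at -0.03 in FL1 mice.

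The interaction of line and stage asks whether the line effect differs between the stages. None of the 33 members tested was called by edgeR or DESeq2, and these tools called 0.00% of 14938 and 0.00383% of 26081 genes. Unadjusted p-values were below 0.05 for 2 members, Tnfsf10 and Casp6, which is 6.06% against 4.75% of all genes, and for 3 members in DESeq2. The median half-width of the 95% intervals of the members was 0.99 on the log2 scale, so that for a typical member the interval reached about 2-fold to either side of the estimate.

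The balance of pro-death and anti-death genes was described from sums of CPM over the 29 pro-death and 9 anti-death members, without a test. In ctrl mice in estrus the pro-death genes summed to 981 ± 97 CPM and the anti-death genes to 377 ± 51 CPM (SD, n = 5). In ctrl mice in diestrus the sums were 830 ± 63 and 428 ± 30 CPM. In FL1 mice they were 949 ± 36 and 424 ± 17 CPM in estrus, and 922 ± 37 and 413 ± 55 CPM in diestrus. The ratio of both sums was 2.64 ± 0.51 in ctrl mice in estrus, 1.94 ± 0.07 in ctrl mice in diestrus, 2.24 ± 0.15 in FL1 mice in estrus and 2.27 ± 0.37 in FL1 mice in diestrus. The 5 ctrl mice in diestrus lay close together at 1.84 to 2.02 and below all ctrl mice in estrus, which had 2.24 to 3.53. The FL1 mice of both stages overlapped. Such sums are carried by the members with the highest levels, Aifm1 and Casp6 among the pro-death genes and Mcl1 and Xiap among the anti-death genes.

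The log2 ratio of Bax to Bcl2, a common index of the mitochondrial route, was 4.39 ± 1.98 in ctrl mice in estrus, 2.36 ± 0.65 in ctrl mice in diestrus, 2.37 ± 0.68 in FL1 mice in estrus and 2.64 ± 0.81 in FL1 mice in diestrus (SD, n = 5). The highest value, 7.66, belonged to the ctrl mouse in estrus without a Bcl2 read, and it depends on the prior count of 2 that was added. The other 4 mice of that group had 2.81 to 4.64. Bax itself was even, with 56.0 ± 12, 58.1 ± 7.3, 60.4 ± 10 and 62.5 ± 17 CPM in the 4 groups in the same order.

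**Figure D5:**
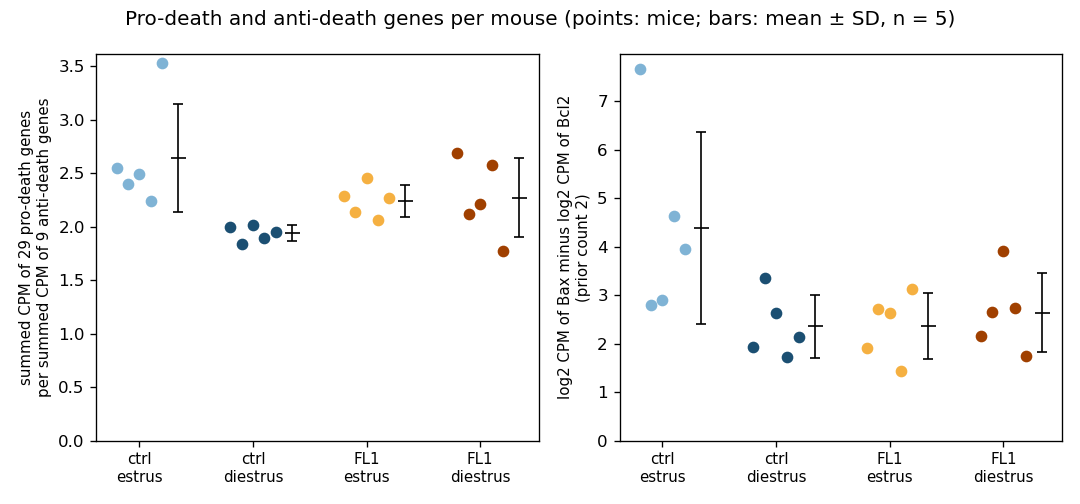
Ratio of the summed CPM of the pro-death genes to that of the anti-death genes (left) and log2 ratio of Bax to Bcl2 (right) for each mouse, with the mean ± SD of the 5 mice beside each group and both axes starting at 0. The ctrl mice in diestrus lie between 1.84 and 2.02 on the left, below all ctrl mice in estrus, and 1 ctrl mouse in estrus lies at 7.66 on the right.

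Other genes of the pathway were taken from 7 lists with 88 genes. All were found, and 72 to 76 were tested in a comparison. In estrus 1 of 74 was called between the lines (1.35%, against 0.769% of all genes). In diestrus 0 of 72 were called by edgeR, against 0.248% of all genes, and 9 had an unadjusted p below 0.05, against 5.56% of all genes. None of the other BCL2-related genes (13), caspases and substrates (11), caspase regulators (9), death receptor genes (14) or genes of the stress arm (11) was called in any of the 7 comparisons by edgeR. The largest number of unadjusted p-values below 0.05 in these 5 lists was 2 of a list in a single comparison.

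The genes that were called belong to the p53 targets and to the survival kinases with the FOXO factors. Sgk1, a kinase that phosphorylates FOXO factors, was called higher in FL1 mice in estrus, with 75.8 ± 25 CPM in ctrl and 272 ± 235 CPM in FL1 mice (SD, n = 5, log2 fold change 1.84, edgeR adjusted p = 0.0462). Over both stages it was also called, with a log2 fold change of 1.60. Its values in FL1 mice in estrus were 241, 676, 104.4, 108.3 and 228 CPM, so 1 mouse was far above the others. Foxo1, which drives Bcl2l11 and other death genes in several cell types and is strongly expressed in GCs, was called higher in diestrus in ctrl mice, with 1078 ± 97 CPM in estrus and 2121 ± 470 CPM in diestrus (SD, n = 5, log2 fold change 0.98, edgeR adjusted p = 0.0143). It was also called over both lines, with 0.97. Pik3r1, the regulatory subunit of the PI3 kinase, was called in ctrl mice in the same direction, with 126 ± 15 and 245 ± 47 CPM (SD, n = 5). In FL1 mice Pik3r1 was even between the stages, with 210 ± 86 CPM in estrus and 209 ± 99 CPM in diestrus (SD, n = 5).

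Of the 20 p53 targets Ccng1, a cyclin, was called higher in FL1 mice over both stages, with 70.5 ± 12 CPM in ctrl and 118 ± 40 CPM in FL1 mice (SD, n = 10, log2 fold change 0.73, edgeR adjusted p = 0.0376). Ddit4l, an inhibitor of mTOR signalling, was called higher in diestrus in ctrl mice, with 116.1 ± 56 and 295 ± 56 CPM (SD, n = 5, log2 fold change 1.34), and over both lines with 1.01. Between the lines in diestrus 7 of the 20 targets had an unadjusted p below 0.05, against 5.56% of all genes, and none was called. In estrus there were 2 of 20, against 10.7% of all genes, and over both stages 8 of 20, against 11.0%. Trp53 and Mdm2 themselves were not called between the lines over both stages by either tool, with log2 fold changes of 0.20 (95% interval -0.22 to 0.61) and -0.03 (95% interval -0.35 to 0.29) in edgeR.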

How the data were processed

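GC samples of 20 mice, 5 for each combination of line and stage, were assigned to their groups by the labels. Per the labels and the methods, libraries were made with the QuantSeq 3′ mRNA-Seq Fw kit, and trimmed reads were aligned with STAR to GRCm38. The authors deposited raw counts of reads per Ensembl gene for each mouse, without normalization and without molecular identifiers, and no step before these counts was repeated. The strand setting of the counting is not given in the sources used here, so genes that overlap on the other strand are named beside several results. Further ones are Gpr137 over Bad (1350 reads against 7343) and Cela2a and Ctrc over Casp9 (86 and 17 reads against 3350). The counts of unmapped, multimapping, ambiguous and unassigned reads were left out of library sizes, and 48.9% to 58.4% of the reads of a file were counted on genes. Symbols and positions came from GENCODE M21 (GRCm38), which held 55227 of 55487 identifiers.

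The tests used edgeR 4.0.16, limma 3.58.1 and DESeq2 1.42.0 (R 4.3.3), and the summaries Python 3.11.15 with pandas 2.3.3, NumPy 2.4.6 and SciPy 1.17.1. Low genes were removed by filterByExpr (count 10, total 15, share 0.7 of the samples of the smallest group), TMM scaling was applied, and groups were compared by the quasi-likelihood F test with Benjamini-Hochberg adjustment over all genes tested and a threshold of 0.05. The filter kept 31 members in every comparison, 2 in some and 5 in none (Bik, Pmaip1, Hrk, Casp1 and Fasl). A member that passes only through the group where it is higher is more likely to differ, so counts of members refer to those tested. Intervals of 95% were taken from the standard error and the residual degrees of freedom, and log2 CPM values used a prior count of 2. Near-identical copies were searched with BLAST 2.17.0 in the last 500 nt of transcripts (90% identity over 100 nt). The hits of Apaf1 and Tnfrsf10b were left aside because they were too many for gene copies (432 and 35). The tools were tested on simulated counts with known changes.

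All members are named, by role, and of the other pathway lists the genes called. The members and lists were chosen with earlier results of these data known. Of the other alternatives, all but those of the stages over both lines and of the copies of Cycs were planned. Replicate numbers come from the labels and number different mice.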

Additional observations from a re-analysis of the deposited data

Results flagged for a closer look

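For each member and group, the gap between the highest or lowest of the 5 mice and the nearest other mouse was divided by the range of the group. In 19 of 143 sets of values (13.3%) this share was above 0.71, the 95% limit of Dixon for 5 samples. About 1 set in 20 passes that limit if the values are normally distributed. CPM values of low counts are not, and a set with reads in a single mouse has a share of 1 by construction. The 13.3% can therefore not be read as an excess over 1 in 20. In all 19 the outlying mouse lay above the others, on the linear CPM scale.

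Several of the less expressed genes were found in a single mouse of a group, with a share of 1. Hrk, a BH3-only gene best known from neurons, had 38 reads (6.55 CPM) in replicate 5 of ctrl estrus and 14 reads in replicate 2 of FL1 diestrus, and 0 reads in the other mice of both groups. Fas had 19 reads in replicate 5 of ctrl estrus and 45 reads in replicate 2 of FL1 diestrus, with 0 in the others. Bmf had 34 reads in replicate 1 of ctrl estrus, Pmaip1 20 reads in replicate 4 of FL1 diestrus, Casp1 7 reads in replicate 3 of ctrl estrus and Bik 6 reads in replicate 2 of FL1 estrus. Without molecular identifiers the number of RNA molecules behind these reads is unknown. Pmaip1 in ctrl estrus (share 0.713, 14 reads in replicate 5), Fas in FL1 estrus (share 0.779, 54 reads in replicate 1) and Casp1 in FL1 diestrus (share 0.732, 17 reads in replicate 2) also had 1 mouse above the rest.

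Among the stronger expressed members, Bak1 reached 65.3 CPM in replicate 5 of ctrl estrus against 28.8 CPM in the next mouse (share 0.795), and Casp9 reached 45.0 CPM in the same mouse against 26.5 CPM (share 0.713). This mouse gave 5 of the 19 values, those of Bak1, Casp9, Hrk, Fas and Pmaip1, and replicate 2 of FL1 diestrus gave 4. Bcl2l1 in FL1 estrus reached 62.6 CPM in replicate 2 against 34.7 CPM (share 0.729), and Bad in FL1 estrus reached 74.9 CPM in replicate 4 against 51.9 CPM (share 0.829). Bcl2l2 in ctrl diestrus reached 20.6 CPM in replicate 1 against 6.29 CPM (share 0.79). Bid in FL1 diestrus had 22.0 CPM in replicate 4 against 9.91 CPM (share 0.821), and Bok in FL1 diestrus had 74.3 CPM in replicate 2 against 63.7 CPM (share 0.795). Cycs in ctrl estrus had 21.9 CPM in replicate 1 against 12.6 CPM (share 0.727), and this mouse is the one by which the lines overlapped most for Cycs in estrus.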

How the results depend on the processing

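With DESeq2 in place of edgeR 1 member was called between the lines in estrus (Xiap), 1 in diestrus (Tnfsf10), 1 over both stages (Cycs) and 3 between the stages over both lines (Tnfrsf1a, Aifm1 and Endog), and the cause of the difference was not tested. Robust estimation, RLE size factors and the absence of a filter left the number of members called in each of the 7 comparisons as it was, and so did all samples in 1 fit in the 4 comparisons within a stage or line, where it was run. Leaving out each mouse in turn gave 0 members called in the other comparisons and 0 to 1 between the stages over both lines. The 24 of 226 pairs of member and comparison with an unadjusted p below 0.05 were followed in detail. Of their 494 values under an alternative, none changed its direction, 7 lost a call (all for Tnfrsf1a without a mouse) and 5 gained one (all with DESeq2). Of the other 202 pairs, 82 changed direction under 1 or more alternatives, with estimates of at most 0.55 in size on the log2 scale (median 0.07), so the counts of higher and lower estimates are not fixed. The replicate number as a block gave 0 members called in the 6 planned comparisons and 1 in that of the stages over both lines, and changed no call of a member. Mice with the same number did not deviate together (correlations -0.166 to 0.117, with 1 of 30 above 0.1), so the numbers do not pair the samples, and under the block 58 genes in estrus and 13 in diestrus were called in all, against 100 and 32. Over all genes DESeq2 called 422, 118, 525, 264, 1, 437 and 881 genes in the 7 comparisons (line in estrus, line in diestrus, stage in ctrl, stage in FL1, interaction, line over both stages, stage over both lines), against 100, 32, 175, 29, 0, 181 and 473 with edgeR, and without the filter edgeR called between 6 (interaction) and 617 genes (stage over both lines), more than with it in each comparison. All samples in 1 fit called 65 genes between the stages in FL1 mice. Without 1 mouse edgeR called 66 to 130, 21 to 32, 77 to 176, 13 to 178, 0, 139 to 209 and 324 to 728 genes, and the highest numbers for the stages in FL1 mice and over both lines came without replicate 1 of FL1 diestrus. The half-width of the 95% interval reached 2.77 on the log2 scale in diestrus, for Bmf, a member below 10 CPM. The parts of depth and of the spread between mice in this width were not tested.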
